A study of Mus musculus with 4 samples.

Results

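The 10 genes described here encode enzymes that make or break down cyclic nucleotides and regulatory subunits of protein kinase A (PKA). They are the adenylyl cyclase gene Adcy7, the phosphodiesterase genes Pde3a, Pde4b, Pde4d, Pde5a, Pde7b, Pde8a and Pde10a, and the PKA regulatory subunit genes Prkar2b and Prkar1a. They were taken as a list of names from the 32285 genes in the files, and all 10 had unique molecular identifiers (UMIs, the count of captured RNA molecules) in all 4 libraries. The list was chosen with earlier results of these data known.

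Adenylyl cyclases make cyclic AMP, the second messenger through which the FSH and LH receptors act in granulosa cells (GCs). Cyclic AMP binds the regulatory subunits of PKA and frees its catalytic subunits, and phosphodiesterases end the signal by hydrolysing cyclic AMP, cyclic GMP or both. In the ovarian follicle, cyclic GMP made by GCs passes to the oocyte and holds the oocyte's own phosphodiesterase in check, which keeps meiosis arrested.

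Ovaries of 8-week-old female mice were taken apart into cells and sequenced with droplet barcodes, giving 4 libraries, of which 2 were of the genotype Fosl2F/F and 2 of Fosl2cKO. Both groups carry floxed Fosl2 on both alleles, and the Fosl2cKO mice also carry Cyp19a1-Cre, whose promoter is that of aromatase and is active in GCs, so that the deletion is meant for GCs. Fosl2 encodes a subunit of the AP-1 transcription factor. The study's methods describe mice of 1 litter handled together, but the labels do not tie a library to an animal, and p-values measure the spread between these libraries.

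The libraries held 120327227 to 148836173 UMIs. After filtering, 41538 cells remained, 6760 to 19575 in a library. The second Fosl2F/F library stood apart, with 28155 barcodes against 8654 to 11045 in the others and a median of 3654 UMIs per cell against 11187 to 12479. Pairs of libraries shared 15 to 81 barcodes, and among the cells kept at most 0.518% of the smaller library. Fosl2 in GC-like cells was at 161 and 167 CPM (UMIs of the gene in each 1000000 UMIs of the class) in Fosl2F/F, against 167 and 115 in the libraries labelled Fosl2cKO. The first library labelled Fosl2cKO was thus no lower than the controls, although UMIs from the 3′ end of the gene need not lie in the deleted part and may not report the deletion.

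Cells were grouped without using the 10 genes or the other genes of the cyclic nucleotide pathway, and the groups were named from marker lists as "like" a cell type. The markers of GC-like cells, among them Fshr and Amhr2, summed to between 8633 and 15363 CPM in GC-like cells and to between 225 and 605 in endothelial-like cells. Levels are given below for 8 GC states and 12 other classes, each with at least 20 cells in every library, as the mean ± SD over the 4 libraries. Where 4 values follow each other, they are those of the Fosl2F/F libraries 1 and 2 and then of the Fosl2cKO libraries 1 and 2. Differences between classes carry no test, because the classes were made from the same cells. In the order of a gene's levels, neighbouring classes are called separated where one was higher in all 4 libraries by a mean log2 difference larger than its SD.

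**Figure D1:**
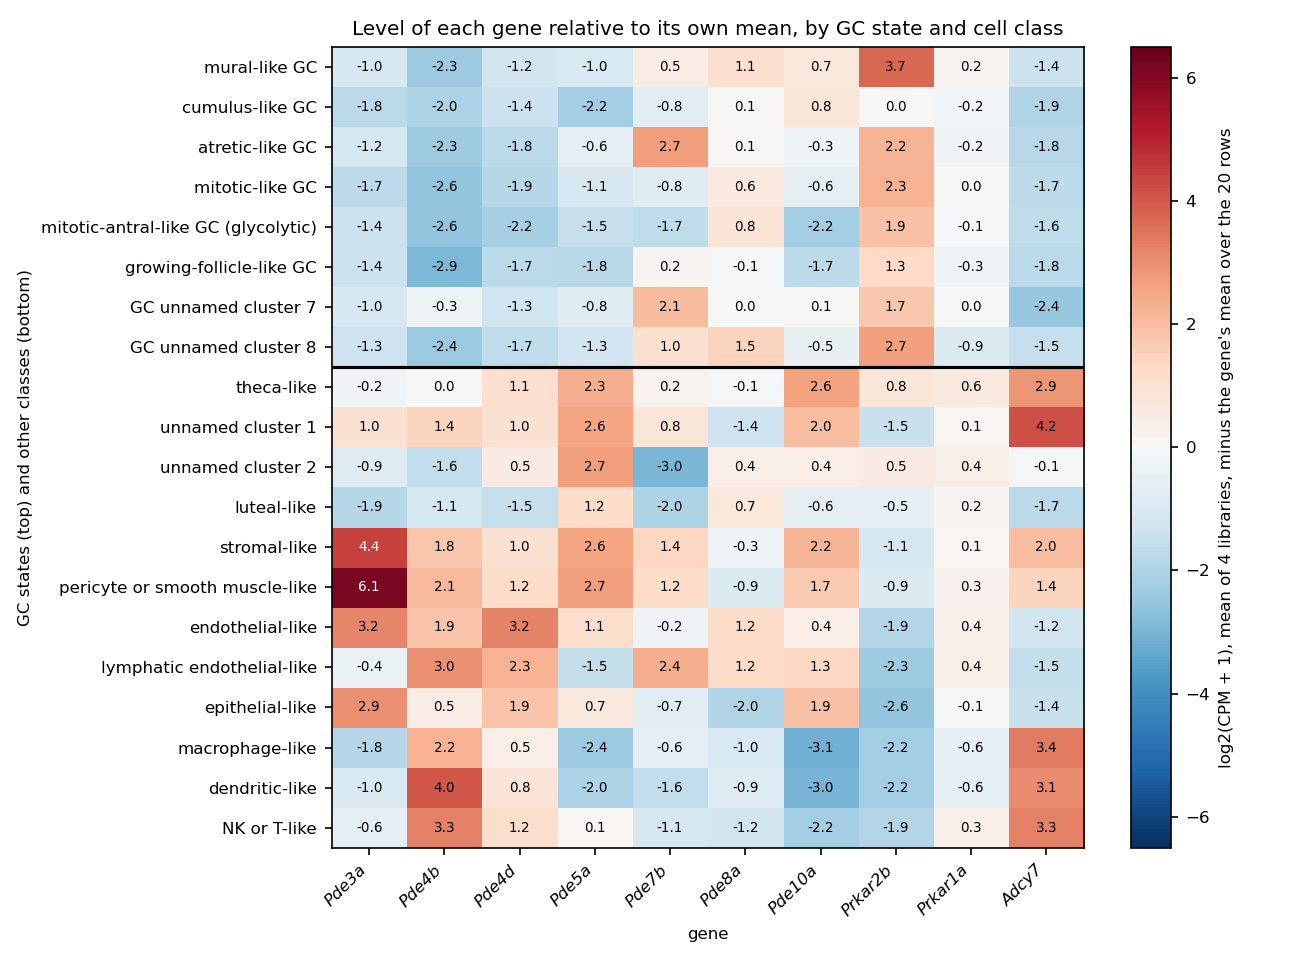
Level of each of the 10 genes (columns) in 8 GC states and 12 other classes (rows), as the mean over the 4 libraries of log2(CPM + 1) minus the same gene's mean over the 20 rows, so that colours are read down a column. Prkar2b was highest in mural-like GCs, Pde7b in atretic-like GCs, Pde3a in pericyte or smooth muscle-like cells, Pde4d in endothelial-like cells, Pde4b in dendritic-like cells and Adcy7 in unnamed cluster 1.

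Adcy7 (chr8:88272403-88329962, plus strand, GRCm38 with GENCODE M21, as for all positions of genes here) encodes an adenylyl cyclase known from immune cells. Its highest level was in a cluster left unnamed (unnamed cluster 1) whose leading genes include Asb4 and Enpep of the theca list and Col1a2 of the stromal list, with close scores for the theca (0.545) and stromal (0.499) markers. There it was at 156 and 129 CPM in Fosl2F/F, against 118 and 213 in Fosl2cKO, a mean of 154 ± 42.5 (SD, n = 4). The theca-like class held 2 clusters that differed in this gene. In the cluster led by Enpep, Adcy7 was at 157, 126, 123 and 177 CPM, and in the cluster led by Cyp17a1, the gene of androgen synthesis, it was at 11.5, 14.6, 18.5 and 20.7 CPM. The first was higher in all 4 libraries, by 6.66-fold to 13.7-fold.

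Immune cells came next, with Adcy7 at 87.4 ± 9.41 CPM in macrophage-like, 80.2 ± 14.2 in NK or T-like and 69.5 ± 11.2 in dendritic-like cells, and neighbours among these were not separated. GC-like cells held 1.45, 2.31, 1.04 and 1.83 CPM of Adcy7, which rested on 52 to 104 UMIs in a library. After each cell was thinned to 2000 UMIs, 19.3% to 31.9% of unnamed cluster 1 had an Adcy7 UMI against 0.206% to 0.588% of GC-like cells (34.0% to 75.8% and 1.30% to 3.62% before thinning, at median depths of 3486 to 12836.5 and 4581.5 to 19192 UMIs per cell).

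Fosl2 is an AP-1 subunit and CREB is the nuclear target of PKA, so the promoters of these genes were searched for the AP-1 letters TGANTCA and the full cyclic AMP response element TGACGTCA, each of which reads the same on both strands. RefSeq promoters (250 bases before to 50 after a start, build GRCm38.p6) were matched for 9 of the 10 genes and gave 21 promoters. One of them, of Adcy7, held the AP-1 letters, and a pair of overlapping promoters of Prkar1a held the response element. The stretches are shown with the matched letters in capitals, both on the plus strand, at chr8:88289031-88289059 for Adcy7, where the match began 24 bases before the start, and at chr11:109650889-109650918 for Prkar1a, where it began 49 bases before 1 start and 38 bases after the other.
Adcy7: ggtcccagatgTGACTCActcttaactag
Prkar1a: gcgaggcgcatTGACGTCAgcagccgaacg
Of all 32851 RefSeq promoters, 7.81% held the AP-1 letters and 1.79% held the response element. These matches are a description of sequence and not of binding.

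Among the phosphodiesterases that act on cyclic AMP alone, Pde4b and Pde4d were low in GCs, with Pde4b highest in immune and lymphatic cells and Pde4d in endothelial cells. Pde4b (chr4:102087543-102607259), whose enzyme is known from leukocytes, was at 888, 977, 1357 and 1010.0 CPM in dendritic-like cells, 1058 ± 206 on average. That class of 780 cells also scored 0.853 for B lymphocyte markers, so it may not be of dendritic cells alone. Clustered without integration, 357 cells were dendritic-like and 153 were B lymphocyte-like. Pde4b was at 628 ± 75.9 CPM in NK or T-like cells, 511.6 ± 101.5 in lymphatic endothelial-like cells and 306 ± 71.1 in macrophage-like cells. Each of the first 3 was separated from the next in the order, and dendritic-like cells exceeded macrophage-like cells by 2.67-fold to 4.17-fold. In GC-like cells Pde4b was at 11.02, 19.3, 11.2 and 8.06 CPM, and macrophage-like cells exceeded them by 19.0-fold to 35.7-fold.

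Pde4b also differed between libraries inside 1 class. Stromal-like cells had 124 and 363 CPM in Fosl2F/F, against 336 and 151 in Fosl2cKO, and unnamed cluster 1 had 102, 191.5, 385 and 112. The second Fosl2F/F and the first Fosl2cKO library were the highest of the 4 in 10 of the 20 classes and states, and they are 1 library of each group. Crem, a cyclic AMP-responsive repressor gene, was also highest in those 2 libraries in stromal-like cells (45.1, 79.3, 98.8 and 60.1 CPM), as was the stress-response gene Atf3 (192, 411, 476 and 204 CPM). The nuclear RNA Malat1 was at 21939, 37429, 31204 and 28050.2 CPM there. These 3 genes were chosen after their values were seen, and their part in the spread of Pde4b was not tested.

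Pde4d (chr13:108449948-109953461), which encodes the other PDE4 enzyme here, was at 540.3, 647, 529 and 598 CPM in endothelial-like cells, a mean of 578.5 ± 54.7. It was next highest in lymphatic endothelial-like cells (320.1 ± 113.5) and epithelial-like cells (229 ± 27.1). In immune cells Pde4d was at 148 ± 67.6 CPM (NK or T-like), 113.5 ± 34.4 (dendritic-like) and 87.1 ± 21.2 (macrophage-like). The 8 GC states lay between 13.3 ± 2.88 and 27.8 ± 7.99 CPM of Pde4d. Endothelial-like cells exceeded GC-like cells by 26.5-fold to 36.8-fold in the 4 libraries.

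**Figure D2:**
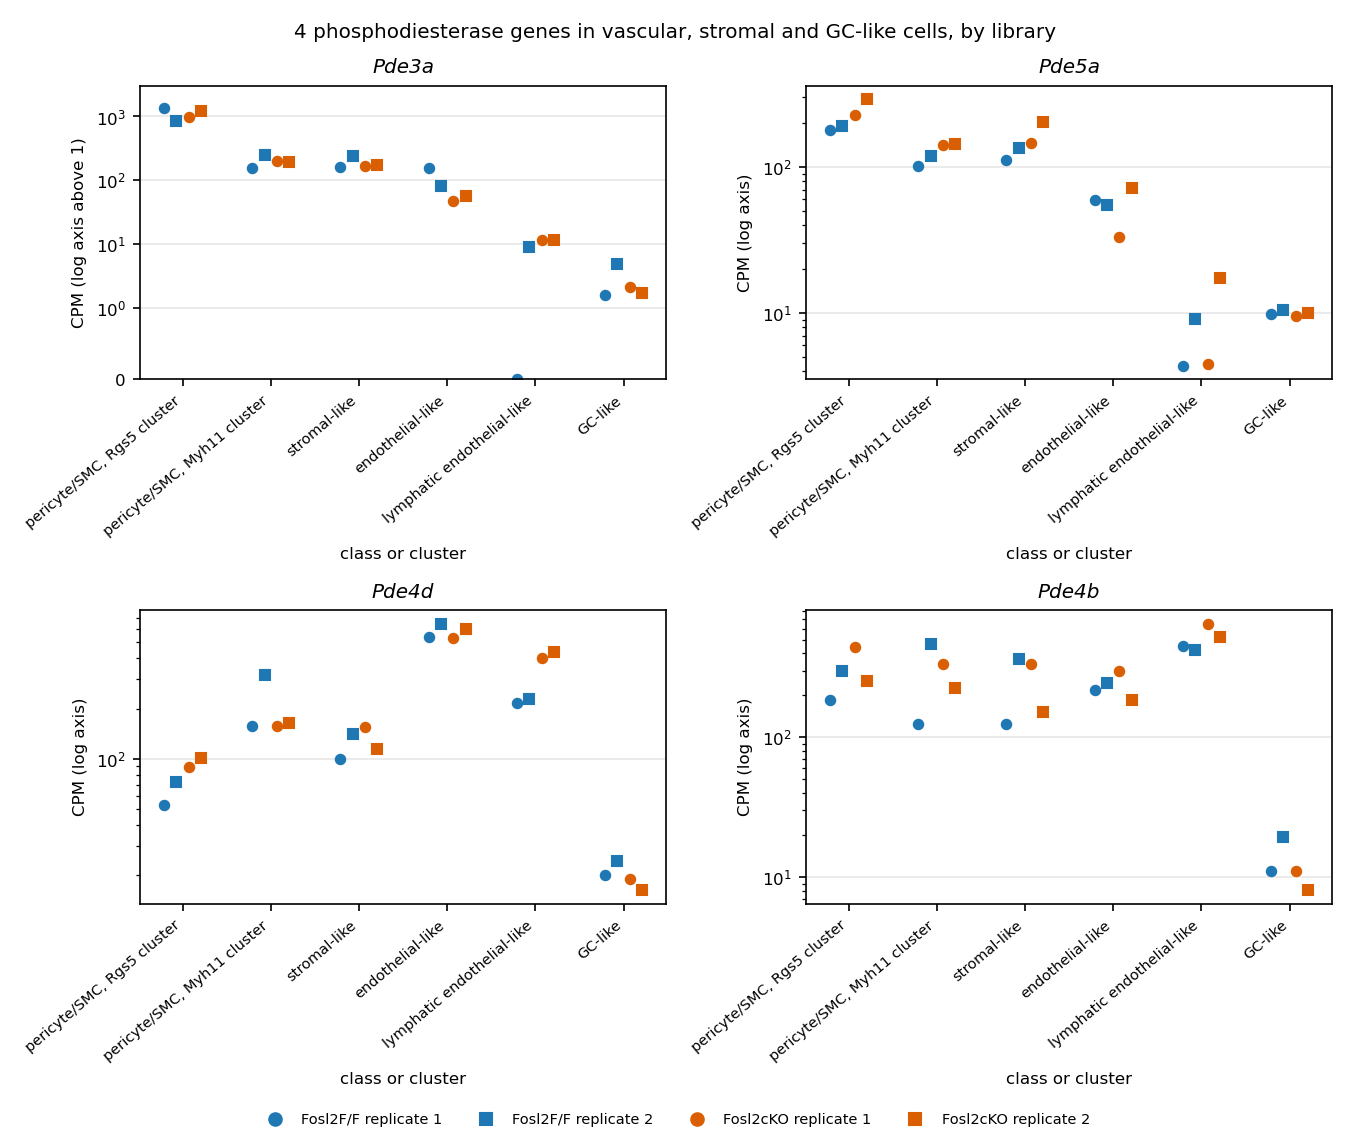
Level (CPM, log axis; for Pde3a linear below 1) of 4 phosphodiesterase genes in each library, in pericyte or smooth muscle-like clusters (pericyte/SMC), stromal-like, endothelial-like, lymphatic endothelial-like and GC-like cells; each point is 1 library. Pde3a sat between 859 and 1343 CPM in the Rgs5 cluster and between 1.59 and 4.85 CPM in GC-like cells, and Pde4d sat between 529 and 647 CPM in endothelial-like cells.

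Pde7b (chr10:20398004-20725078, minus strand), which encodes a cyclic AMP phosphodiesterase, had its highest mean in the atretic-like GC state. Its level there was 1220.4, 1316, 1714 and 1333 CPM, a mean of 1396 ± 218. GC unnamed cluster 7, whose best marker score was narrowly the atretic-like one, had 494, 1147, 887 and 1196 CPM (931 ± 321), and GC unnamed cluster 8 had 496.5 ± 307. The means were 292 ± 34.4 in mural-like, 134 ± 62.3 in cumulus-like and 133 ± 78.9 in mitotic-like GCs. Atretic-like GCs exceeded mural-like GCs by 4.24-fold to 5.17-fold and cumulus-like GCs by 7.88-fold to 15.0-fold, in all 4 libraries. The lowest of the GC states was the glycolytic mitotic-antral-like state, with 37.1, 55.6, 63.8 and 138 CPM. That state was named from Cox4i2, Ndufa4l2, Slc16a3, Ldha and Vegfa, none of them a cell cycle gene, so its name does not show division. Pde7b was among the leading genes of the atretic-like cluster, although it had not been used to form it.

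Pde7b was not particular to GCs. Lymphatic endothelial-like cells had 1428, 1275, 801 and 968 CPM, a mean of 1118 ± 285 that was not separated from the atretic-like state, and blood endothelial-like cells had 184 ± 39.2 CPM. The lymphatic class exceeded the blood endothelial class by 5.12-fold to 6.61-fold. Stromal-like cells were at 557 ± 167 CPM and the lowest class, unnamed cluster 2, led by Abcb1b and Hao2, at 27.8 ± 11.3. After thinning to 2000 UMIs, 78.5% to 87.7% of atretic-like GCs and 2.49% to 6.80% of unnamed cluster 2 had a Pde7b UMI (91.2% to 99.2% and 9.39% to 25.0% before thinning, at median depths of 4293 to 15827.5 and 3869 to 18214 UMIs per cell).

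The growing-follicle-like state was named from Amh, Cited1, Slc18a2 and Wt1. Within it, Pde7b differed between libraries of the same group, at 371 and 162 CPM in Fosl2F/F and 109 and 474 in Fosl2cKO. The summed level of the 6 atretic-like markers in that state, with none of the 6 at 0, was high in the same 2 libraries, at 636, 146, 56.6 and 433.5 CPM. Whether the markers account for the spread of Pde7b was not tested.

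Pde8a (chr7:81213596-81334533), whose enzyme has a high affinity for cyclic AMP and is known from steroid-making cells, had a highest mean 10.4-fold its lowest. Its means ran from 24.8 ± 11.4 CPM in epithelial-like cells to 257 ± 43.0 in GC unnamed cluster 8, a cluster of 42 to 139 cells in a library. Lymphatic endothelial-like, endothelial-like and mural-like cells followed at 234 ± 104, 213 ± 21.6 and 201 ± 36.7 CPM, and no neighbours among these 4 were separated. Among GC states with a name, mural-like GCs had the most, with 204, 243, 204 and 153 CPM against 66.7, 128, 127 and 83.5 in cumulus-like GCs. The mural-like state exceeded the cumulus-like state in all 4 libraries by 1.61-fold to 3.06-fold. In the theca-like class, the Cyp17a1 cluster exceeded the Enpep cluster by 4.79-fold to 7.27-fold.

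Pde3a, Pde5a and Pde10a encode enzymes that act on both cyclic nucleotides (Pde3a, Pde10a) or on cyclic GMP alone (Pde5a). Pde3a (chr6:141249269-141507448) had a mean of 592 ± 63.5 CPM in pericyte or smooth muscle-like cells and 186 ± 34.2 in stromal-like cells, and all 4 libraries were under 20 CPM in 15 of the 20 classes and states. Inside the first class, the cluster led by the pericyte gene Rgs5 had 3.46-fold to 8.55-fold more than the cluster led by Myh11, the smooth muscle myosin gene. Pde3a was among the leading genes of the Rgs5 cluster. In that cluster its mean was 1108 ± 223 CPM, against 201 ± 37.4 in the Myh11 cluster.

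In GC-like cells Pde3a was at 1.59, 4.85, 2.16 and 1.71 CPM. After thinning, 41.5% to 49.2% of pericyte or smooth muscle-like cells had a Pde3a UMI, while in macrophage-like cells at most 0.828% did (53.6% to 69.0% and at most 2.21% before thinning, at median depths of 2521 to 6992.5 and 2394 to 9382 UMIs per cell). Oocyte-like cells, in which PDE3A is the phosphodiesterase of meiotic arrest, were too few to enter the comparisons, with 17 to 57 cells in a library. They held 12 and 48 Pde3a UMIs in Fosl2F/F, against 5 and 12 in Fosl2cKO, which is 130.3, 166, 114 and 66.9 CPM.

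Pde5a (chr3:122728947-122859374) was low in GCs and higher in the cells around them. Pericyte or smooth muscle-like cells had 136, 154, 178 and 201 CPM, a mean of 167 ± 28.3, and unnamed cluster 2 (165 ± 11.9), unnamed cluster 1 (152 ± 42.2) and stromal-like cells (149.9 ± 39.0) were not separated from them in this order. GC-like cells had 9.79, 10.4, 9.57 and 9.97 CPM of Pde5a, and stromal-like cells exceeded them by 11.5-fold to 20.5-fold. The Rgs5 cluster again exceeded the Myh11 cluster, by 1.60-fold to 2.04-fold. The reverse held for Pde4d and Pde7b, for which the Myh11 cluster was higher in all 4 libraries, by 1.63-fold to 4.41-fold and by 3.05-fold to 6.78-fold.

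Pde10a (chr17:8525372-8986648) differed widely between libraries. Theca-like cells had the highest mean, 459.5 ± 455 CPM, from 142 and 1123 in Fosl2F/F, against 190.4 and 382 in Fosl2cKO. One library carried most of this mean, and only in the second Fosl2F/F library and the second Fosl2cKO library was the theca-like class the highest of all. In the Cyp17a1 cluster the values were 144, 1626, 115.5 and 507 CPM, and in the Enpep cluster 138, 357, 329 and 198. Stromal-like cells had 267 ± 99.9 CPM and unnamed cluster 1 had 237 ± 105. Among GC states, mural-like GCs had the highest mean, 125 ± 126 CPM, with 312 CPM in the second Fosl2F/F library. Cumulus-like GCs exceeded the glycolytic mitotic-antral-like state by 5.62-fold to 12.4-fold, at 102 ± 47.0 against 10.6 ± 2.07 CPM.

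Prkar2b (chr12:31958476-32061296, minus strand), the gene of the PKA regulatory subunit that FSH is known to raise in maturing GCs, was highest in GCs. Mural-like GCs, named after the outer layer of the antral follicle, had 2570.4, 1755, 2598 and 2908 CPM, a mean of 2458 ± 493. The 7 other GC states ranged from 1198 ± 395 in GC unnamed cluster 8 down to 188 ± 50.2 in cumulus-like GCs. These are named after the cells next to the oocyte, but scored 0.64 for the growing-follicle markers beside 0.86 for the cumulus markers. They may thus not be cumulus cells alone. Mural-like GCs exceeded cumulus-like GCs by 11.4-fold to 14.8-fold and stromal-like cells by 25.4-fold to 43.1-fold, in all 4 libraries.

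The mitotic-like, glycolytic mitotic-antral-like and growing-follicle-like states lay between, at 889 ± 188, 691 ± 207 and 494.5 ± 286 CPM of Prkar2b. Theca-like cells had 338 ± 146 CPM, and there the Cyp17a1 cluster exceeded the Enpep cluster by 3.66-fold to 9.55-fold. The lowest classes were lymphatic endothelial-like (37.8 ± 13.2) and epithelial-like cells (31.4 ± 15.0). After thinning, 92.7% to 98.7% of mural-like GCs and 5.59% to 8.12% of macrophage-like cells had a Prkar2b UMI (at least 98.0% and 7.51% to 31.2% before thinning, at median depths of 4245 to 16540.0 and 2394 to 9382 UMIs per cell).

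Prkar1a (chr11:109649405-109669656), the gene of the regulatory subunit found in most tissues, was the most even of the 10 by the ratio of its highest to its lowest mean. All 20 means lay between 112 ± 36.7 and 315.5 ± 41.4 CPM, and the highest was 2.81-fold the lowest. Theca-like cells were highest, at 331, 366, 272 and 294 CPM, and there the Cyp17a1 cluster exceeded the Enpep cluster by 1.46-fold to 1.84-fold. GC-like cells had 202.5, 203.5, 189.9 and 175 CPM. The fitted level of Prkar1a was lower in Fosl2cKO in 20 of the 21 classes and states tested, GC-like cells included, with a median log2 fold change of -0.11 and an unadjusted p under 0.05 in 0 of them. These 21 are not independent, because GC-like cells hold the GC states and all come from the same libraries. In some of them, such as NK or T-like and luteal-like cells, the mean CPM was higher in Fosl2cKO although the fitted level was lower.

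The number of Prkar2b UMIs per Prkar1a UMI had its highest mean in GC unnamed cluster 8, where Prkar1a had its lowest mean (112 CPM). That cluster was shallow, with a median of 2295 UMIs per cell and 11 to 62 Prkar1a UMIs in a library. In the second Fosl2F/F library its ratio (4.27) was below that of mural-like GCs (7.37). The mean ratio was 11.95 ± 5.64 there, 10.8 ± 2.69 in mural-like, 5.30 ± 2.45 in atretic-like and 1.07 ± 0.361 in cumulus-like GCs, 0.371 ± 0.0943 in stromal-like and 0.137 ± 0.0435 in lymphatic endothelial-like cells. GC-like cells exceeded stromal-like cells by 3.75 ± 0.38 on the log2 scale (mean ± SD of 4 within-library differences). The ratio compares classes with each other and does not give the ratio of the proteins.

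**Figure D3:**
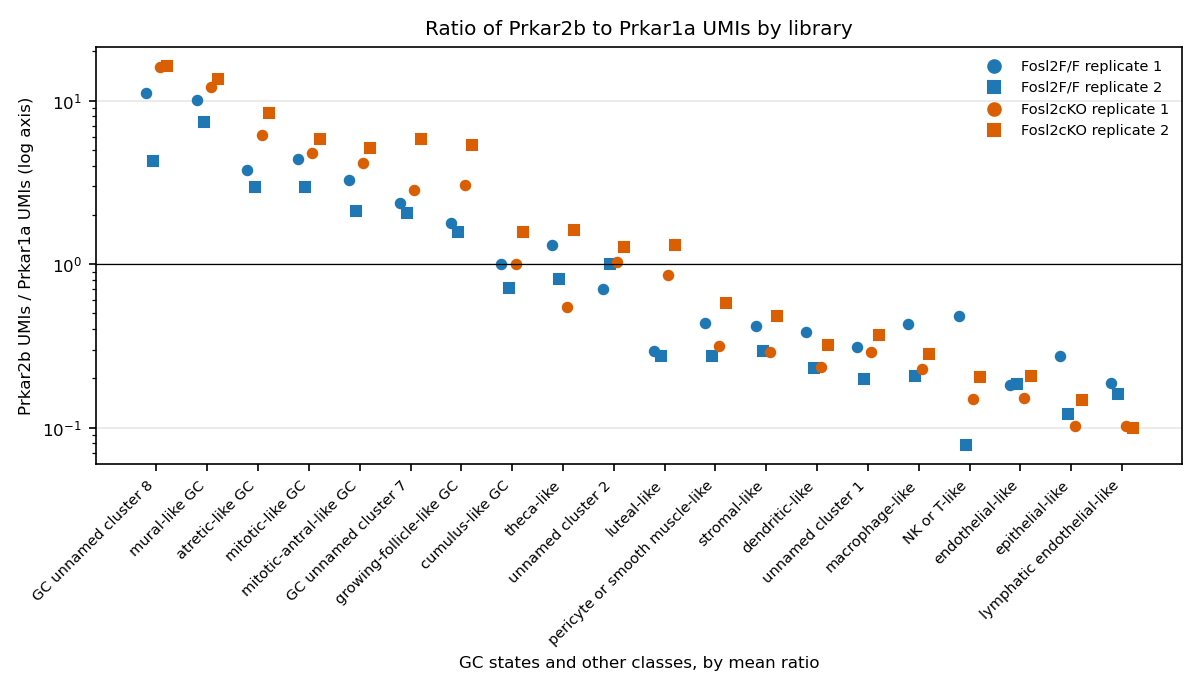
Prkar2b UMIs divided by Prkar1a UMIs (log axis) in each of the 4 libraries, for 8 GC states and 12 other classes in order of the mean ratio; the line marks a ratio of 1. The 4 libraries lay between 7.37 and 13.6 in mural-like GCs and between 0.151 and 0.208 in endothelial-like cells, and in luteal-like cells the Fosl2cKO libraries (0.853 and 1.30) lay above the Fosl2F/F libraries (0.295 and 0.275).

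The genes whose pattern over the 20 classes and states was most like that of each of the 10 were found by Pearson's correlation of mean log2(CPM + 1). For Prkar2b they were Smim10l2a (r = 0.942) and Inha (r = 0.940), the inhibin subunit gene of GCs. For Pde3a the nearest was Atp8b1 (r = 0.907), and they were for Pde4b Map3k8 (r = 0.973) and Ggta1 (r = 0.958), for Pde4d Irf9 (r = 0.957) and Xaf1 (r = 0.945) and for Pde5a Gulp1 (r = 0.909) and Cacna1c (r = 0.899). Pde10a was nearest to Pard3b (r = 0.949) and Nlgn2 (r = 0.918), and Adcy7 to Rassf5 (r = 0.957) and Arap1 (r = 0.911). The nearest genes were less close for Pde8a (Fam222b, r = 0.865; Slc39a9, r = 0.860), Prkar1a (Gnpda2, r = 0.856; Klhl20, r = 0.853) and Pde7b (Ccn2, r = 0.797; Ccdc3, r = 0.797). No gene of the list was among these neighbours of another. The points share their libraries and cells.

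The comparison of Fosl2cKO with Fosl2F/F asked whether loss of Fosl2 in GCs went with a change in these genes. UMIs were summed per class and library and tested with edgeR's quasi-likelihood test over all genes of the class, with a call at an adjusted p (Benjamini-Hochberg) under 0.1 and an absolute log2 fold change above 0.25. In GC-like cells 0 of the 10 genes were called, where 0.00579% of 17283 genes were. None of the 10 had an unadjusted p under 0.05, and DESeq2 called 0 of them and 0.966% of all genes. The median log2 fold change was -0.30 over the 10 genes and -0.02 over all genes tested, with 2 higher and 8 lower in Fosl2cKO. For 3 of the 10 the groups did not overlap, where 31.6% of all genes did not.

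In GC-like cells Prkar2b was at 1121 and 582 CPM in Fosl2F/F and at 1016 and 1151 in Fosl2cKO, a log2 fold change of 0.31 (SE 0.33, edgeR's adjusted p = 0.9996). The second Fosl2F/F library was low and the groups overlapped, and without that library the value was -0.12. Pde7b was at 355 and 248 against 361 and 471 CPM (log2 fold change 0.43, SE 0.26), with no overlap. GC-like cells pool states that differ in both genes, and the mix of states differed by library. Atretic-like GCs numbered 803 and 545 cells in Fosl2F/F, against 292 and 515 in Fosl2cKO. Mural-like GCs numbered 1407 and 995 against 350 and 286, and cumulus-like GCs 434 and 2109 against 442 and 351. The part of this mix in the pooled values was not tested. Pde10a was at 44.3 and 119 against 57.5 and 24.6 CPM (-1.01, SE 0.52), with overlap. Without the first Fosl2cKO library, Pde10a was called in GC-like cells, at -1.71 with an adjusted p of 0.0660, the lowest over its 11 alternatives, and without the second Fosl2F/F library its value was -0.18. Here and below, a fit without 1 library leaves 1 in its group, so that only the other group gives the spread and the lone library is assumed to vary like it. Such calls show how far a value depends on single libraries and are no support for a difference.

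None of the other 7 genes was called in GC-like cells either. Their log2 fold changes were -0.18 (SE 0.15) for Prkar1a, -0.25 (SE 0.20) for Pde8a, -0.08 (SE 0.20) for Pde5a, -0.36 (SE 0.19) for Pde4d and -0.68 (SE 0.30) for Pde4b. Pde3a (-0.73, SE 0.52) and Adcy7 (-0.40, SE 0.43) were at most 4.85 CPM in all 4 libraries.

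**Figure D4:**
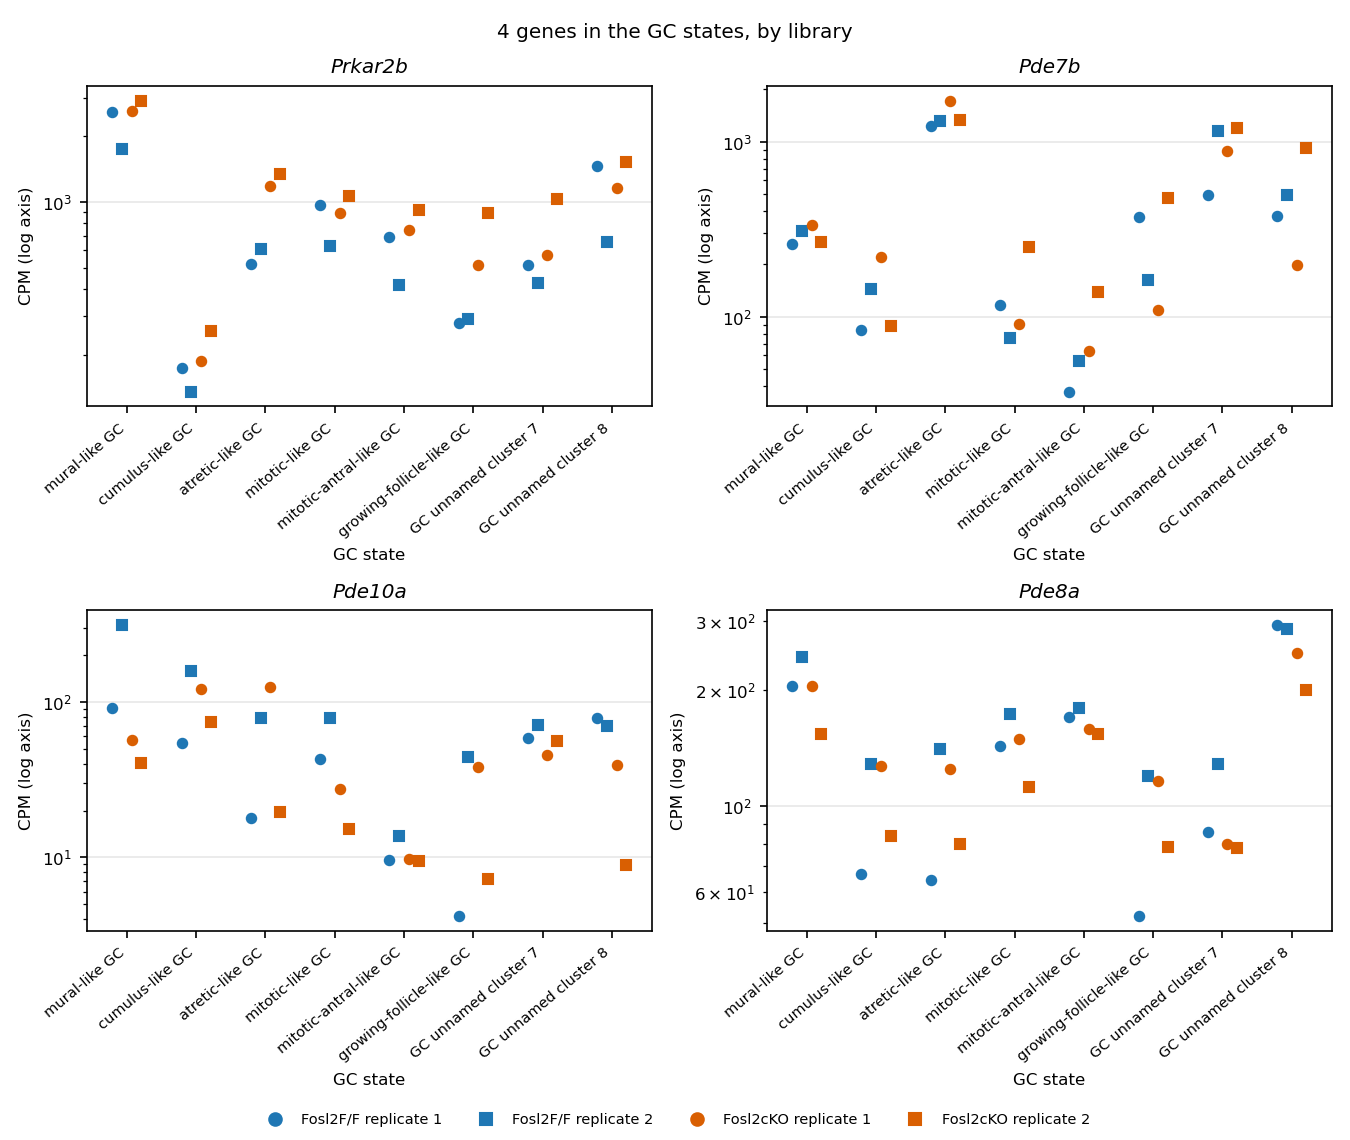
Level (CPM, log axis) of Prkar2b, Pde7b, Pde10a and Pde8a in the 8 GC states, each point 1 library. Prkar2b was highest in mural-like GCs in all 4 libraries, Pde7b was between 1220.4 and 1714 CPM in atretic-like GCs, and Pde10a in mural-like GCs was at 312 CPM in the second Fosl2F/F library against 40.6 to 91.2 in the others.

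Over the 8 GC states, 0 of 70 pairs of gene and state were called by edgeR, where 0.0121% of 90782 pairs of any gene were, and DESeq2 called 4, where it called 0.623% of all pairs. An unadjusted p under 0.05 was met by 9 of the 70 pairs (12.9%) and by 5.66% of all pairs. Because the genes were chosen with earlier results of these data known, the higher share is no independent result. Prkar2b and Pde7b had a higher fitted level in Fosl2cKO in all 8 states, Prkar1a a lower one in all 8 and Pde10a a lower one in 7 of 8. These directions rested in part on single libraries, and leaving out 1 of them turned the direction in 2 states for Prkar2b, 6 for Pde7b, 1 for Prkar1a and 3 for Pde10a. For Prkar1a in atretic-like GCs the mean CPM was not lower in Fosl2cKO, at 139 and 206 against 192 and 160 CPM. In growing-follicle-like GCs, where its log2 fold change was 0.04, Pde7b was called lower in Fosl2cKO without the second Fosl2cKO library (-1.43, edgeR's adjusted p = 0.0568). The states come from the same 4 libraries and are not independent of each other.

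Prkar2b in atretic-like GCs was at 519.8 and 609.5 CPM in Fosl2F/F and at 1182 and 1339 in Fosl2cKO, a log2 fold change of 1.09 (SE 0.24). The groups did not overlap, but edgeR's adjusted p was 0.692. DESeq2 called it (adjusted p = 0.00534), and over the 11 alternatives its adjusted p ran from 0.00534 to 0.99995. The summed level of the 7 mural-like markers in this state was 582, 516, 579 and 559 CPM, with none of the 7 at 0, and that of the 6 atretic-like markers was 3275, 1708, 1701 and 2006 CPM, with none at 0. When cells were clustered without integration, 1 atretic-like cluster had 901 of its 935 cells from the first Fosl2F/F library, and another had 272 and 670 of its 1053 cells from the Fosl2cKO libraries. They held 2 and 38 cells of the second Fosl2F/F library, against 545 with integration. With those clusters the log2 fold change was 1.28 and was not called. The part of the markers or of this split in the difference was not tested.

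In growing-follicle-like GCs Prkar2b was at 278 and 292 CPM against 517 and 891 (log2 fold change 1.23, SE 0.29, edgeR's adjusted p = 0.469; DESeq2's adjusted p = 0.0135). Both Fosl2cKO libraries were above both Fosl2F/F libraries, and the value was 1.59 without the first Fosl2cKO library (edgeR's adjusted p = 0.0110, with 1 library in that group) and 0.74 without the second. With clusters made without integration it was 0.69, and there 891 of the 1044 cells of this state came from the second Fosl2F/F library, against 26 from the first and 50 and 77 from the Fosl2cKO libraries. In mural-like GCs, where its level was highest, Prkar2b was at 2570.4 and 1755 against 2598 and 2908 CPM, and the lowest Fosl2cKO library was just above the highest Fosl2F/F library. This state was also split by library without integration, with 1494 of the 1532 cells of 1 mural-like cluster from the first Fosl2F/F library and 316 and 299 of the 622 cells of another from the Fosl2cKO libraries, and the log2 fold change (0.29 with integration) was then 0.02. Those clusters held 16 and 7 cells of the second Fosl2F/F library, which had 995 mural-like cells with integration, so that value has little of this library behind it.

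Pde10a in mural-like GCs was at 91.2 and 312 CPM in Fosl2F/F and at 56.8 and 40.6 in Fosl2cKO, a log2 fold change of -2.09 (SE 0.52, edgeR's adjusted p = 0.610; DESeq2's adjusted p = 0.00126). In mitotic-like GCs it was at 42.8 and 79.2 against 27.4 and 15.2 CPM (-1.54, SE 0.36, edgeR's adjusted p = 0.448; DESeq2's adjusted p = 0.00279). The groups did not overlap in either state, and in both the second Fosl2F/F library was the highest. GC unnamed cluster 8 had 78.2 and 69.8 against 39.2 and 8.87 CPM of Pde10a (-1.81, SE 0.62). The values of that cluster rested on only 37 and 10 against 6 and 2 UMIs, at a median of 2295 UMIs per cell. Without the first Fosl2cKO library, with only the Fosl2F/F libraries giving the spread, edgeR's adjusted p-values in these 3 states were 0.0629, 5.04e-06 and 0.0414, and in mitotic-like GCs it was 0.0201 without the second. The values were smaller without other libraries, at -0.95 in mural-like and -1.05 in mitotic-like GCs without the second Fosl2F/F library and at -1.02 in GC unnamed cluster 8 without the second Fosl2cKO library. Clustered without integration, mitotic-like GCs were split by library, with 824 and 537 of the 1393 cells of 1 cluster from the Fosl2cKO libraries, 781 of the 840 of another from the second Fosl2F/F library and 592 of the 658 of another from the first. The log2 fold changes of Pde10a were then -1.20 in mural-like and -1.81 in mitotic-like GCs. The first rests on 23 mural-like cells of the second Fosl2F/F library, of which 1740 cells lay in an unnamed GC cluster of 2035 with Pde10a among its leading genes, and the part of the split was not tested. With integration, mitotic-like GCs joined 2 clusters, of 619 and 829 against 309 and 294 cells and of 176 and 422 against 194 and 222. The next-best marker score was mitotic-antral-like in the first (0.510) and growing-follicle-like in the second (0.626). Growing-follicle-like GCs had 23.5 ± 20.7 CPM of Pde10a, and the part of this mix was not tested. In atretic-like GCs the first Fosl2cKO library was the highest for Pde10a, at 18.0 and 78.4 against 124 and 19.5 CPM.

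Pde7b in the glycolytic mitotic-antral-like state was at 37.1 and 55.6 against 63.8 and 138 CPM (log2 fold change 1.08, SE 0.38, edgeR's adjusted p = 0.451), and edgeR called it without the first Fosl2cKO library (adjusted p = 0.00156). Without the second Fosl2cKO library the value was 0.40. In atretic-like GCs, where it was highest, Pde7b was at 1220.4 and 1316 against 1714 and 1333 CPM, and in mural-like GCs at 261 and 310.2 against 332 and 266 CPM, with overlap. The low-level genes Pde4b and Pde4d in mural-like GCs were at 13.5 and 22.1 against 10.8 and 5.32 CPM (-1.15, SE 0.40) and at 34.9 and 32.3 against 27.2 and 16.8 CPM (-0.66, SE 0.28). In growing-follicle-like GCs Pde4d was at 17.5 and 25.9 against 15.5 and 14.2 CPM (-0.62, SE 0.27).

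In the 12 other classes, 0 of 109 pairs were called by edgeR, where 0.151% of 134063 pairs of any gene were, and DESeq2 called 2, where it called 0.585% of all pairs. An unadjusted p under 0.05 was met by 10 of the 109 pairs (9.17%) and by 5.55% of all pairs, with the same limit from the choice of genes. Both of DESeq2's calls were in luteal-like cells, named after the steroid-making cells of the corpus luteum. In luteal-like cells DESeq2 called 3.51% of 12803 genes and edgeR 0.0156%. Prkar2b was at 60.3 and 68.3 CPM in Fosl2F/F and at 215 and 279 in Fosl2cKO there (log2 fold change 1.81, SE 0.29, edgeR's adjusted p = 0.256; DESeq2's adjusted p = 0.000101). Pde7b was at 24.1 and 19.0 against 66.9 and 227 CPM (2.64, SE 0.60, edgeR's adjusted p = 0.295; DESeq2's adjusted p = 0.000823), and without the first Fosl2cKO library edgeR called it (adjusted p = 0.0843), while without the second the value was 1.53.

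The luteal-like class was not made of the same clusters in each library. A cluster led by Akr1c18, a progesterone-degrading enzyme gene, held 110 of 178 and 347 of 1245 luteal-like cells in Fosl2F/F, against 15 of 329 and 32 of 288 in Fosl2cKO. In the other cluster, led by Hsd17b7, Prkar2b was at 139 and 75.8 against 224 and 301 CPM, and Pde7b at 19.2 and 19.1 against 67.1 and 245, the first of these from 4 UMIs. The order of the groups was the same there. Clustered without integration, the Hsd17b7 cluster held 3 cells of the first Fosl2F/F library, against 68 with integration. It then held 894 cells of the second Fosl2F/F library and 319 and 300 of the Fosl2cKO libraries. The order in this cluster thus has little of the first Fosl2F/F library behind it. The 8 theca markers summed to 409 and 785 against 1763 and 1718 CPM in luteal-like cells, and the 7 mural-like markers to 1460.1 and 4258 against 3192 and 5676, with none of either list at 0 in all libraries. Their part in both differences was not tested.

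Pde3a in endothelial-like cells was at 158 and 82.3 CPM in Fosl2F/F and at 48.1 and 57.4 in Fosl2cKO, a log2 fold change of -1.16 (SE 0.32, edgeR's adjusted p = 0.365), and edgeR called it without the second Fosl2cKO library (adjusted p = 0.0671). Without the first Fosl2F/F library the value was -0.63. The 6 markers of pericyte or smooth muscle-like cells, the class with the most Pde3a, summed to 846 CPM in the first Fosl2F/F library and to 377, 401 and 456 in the others, with none of the 6 at 0, and their part was not tested. In pericyte or smooth muscle-like cells themselves Pde3a was at 677 and 547 against 539 and 603.5 CPM, and the groups overlapped.

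The other pairs at an unadjusted p under 0.05 were not called either. Pde4d was at 217 and 228 against 400.3 and 435 CPM in lymphatic endothelial-like cells (0.87, SE 0.40) and at 92.3 and 123 against 247 and 132 in NK or T-like cells (0.79, SE 0.30), where edgeR called it without the second Fosl2F/F library (adjusted p = 0.0641) and where the value was 0.26 without the first Fosl2cKO library. Pde5a was at 111 and 126 against 167 and 204 CPM in unnamed cluster 1 (0.54, SE 0.25) and at 23.1 and 10.5 against 35.9 and 50.8 in NK or T-like cells (1.16, SE 0.43). Pde4b was at 97.8 and 170.4 against 91.8 and 40.8 CPM in epithelial-like cells (-1.03, SE 0.39). In unnamed cluster 2, Pde4b was at 11.9 and 18.0 against 25.9 and 27.0 CPM (0.78, SE 0.27) and Pde3a at 6.54 and 4.64 against 2.77 and 2.25 (-1.14, SE 0.41).

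**Figure D5:**
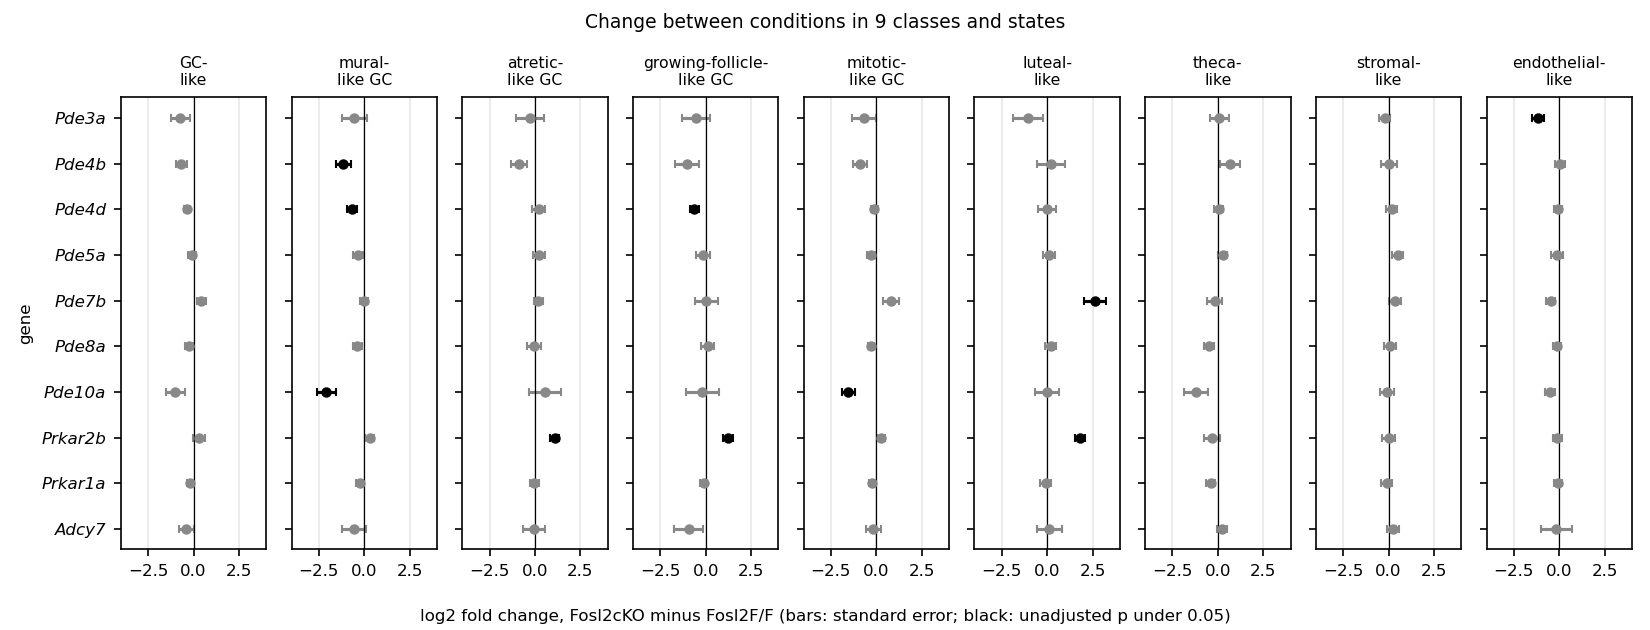
Log2 fold change (Fosl2cKO minus Fosl2F/F; bars are the standard error) of the 10 genes in GC-like cells, 4 GC states and 4 other classes; black points had an unadjusted p under 0.05, and no point passed the adjusted threshold. The widest points from 0 were Pde7b in luteal-like cells (2.64) and Pde10a in mural-like GCs (-2.09).

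Whether the change between conditions differed between GC-like and stromal-like cells was tested directly, with limma on the within-library differences of log2 CPM. None of the 10 genes passed an adjusted p under 0.1, nor did any of the 13830 genes tested (0%), and 513 of these had an unadjusted p under 0.05. Pde10a was the only one of the 10 below that unadjusted limit, with a difference of -0.96 (SE 0.38; GC-like minus stromal-like) and an adjusted p of 0.9999. For Prkar2b the 2 changes differed by 0.42 (SE 0.41) and for Pde7b by 0.14 (SE 0.35).

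The wider pathway was read from a list of 76 genes of G proteins, cyclases, phosphodiesterases, PKA subunits, PKA inhibitors, PKA anchors, other cyclic nucleotide effectors and nuclear effectors, the 10 genes among them. In GC-like cells 71 could be tested, 0 were called by edgeR and 0 by DESeq2 (0.00579% and 0.966% of all genes), and 2 had an unadjusted p under 0.05, as did 4.76% of all genes. Of these 71, 34 were higher and 37 lower in Fosl2cKO, with a median log2 fold change of -0.08. By role, 4 of 5 G protein genes were higher (median 0.50), as were 6 of 13 cyclases (-0.12), 5 of 21 phosphodiesterases (-0.33) and 4 of 6 PKA subunits (0.15). Higher fitted levels were also found for 2 of 3 PKA inhibitors (median 0.03), 8 of 10 PKA anchors (0.15), 2 of 7 other effectors (-0.12) and 3 of 6 nuclear effectors (0.04). For the phosphodiesterases, 5 of 17 were higher in mural-like (median -0.35), 5 of 19 in mitotic-like (-0.36), 3 of 15 in glycolytic mitotic-antral-like (-0.32), 4 of 14 in cumulus-like (-0.13), 7 of 17 in growing-follicle-like (-0.06) and 8 of 15 in atretic-like GCs (0.06). It was 5 of 10 in GC unnamed cluster 7 (0.07) and 2 of 6 in GC unnamed cluster 8 (-0.30). The other classes ran from 4 of 13 in epithelial-like cells (-0.10) to 12 of 18 in stromal-like (0.08) and 8 of 12 in NK or T-like cells (0.13). Differences between states and classes were not tested. In each of the 8 GC states and 12 other classes too, edgeR called 0 genes of the list. The most at an unadjusted p under 0.05 were 8 of 58 in atretic-like GCs, where 4.97% of all genes were. In luteal-like cells it was 7 of 59, where 10.9% of all genes were, and in the glycolytic mitotic-antral-like state 7 of 52, where 9.69% were.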

How the data were processed

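Ovarian cells of 2 Fosl2F/F and 2 Fosl2cKO libraries were captured with the 10x 3′ kit. The authors deposited UMI counts per gene and barcode. The matrix headers name Cell Ranger 7.1.0, and the submitters' processing notes list Cell Ranger and Seurat 4.1.0. The study's methods describe removal of ambient RNA, and whether it was applied to the deposited counts is not given in the sources used here. That version counts intronic reads by default. The study's methods name an earlier version, which does not, so whether introns were counted is not settled here. Exons cover 0.799% (Pde4d) to 21.3% (Prkar1a) of the span of the 10 genes, and the effect of intronic reads was not tested.

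Barcodes were kept from 500 genes upward and above 1000 UMIs, with limits of 10% on mitochondrial and 0.1% on hemoglobin UMIs, and doublets were removed with Scrublet (scanpy 1.11.5, 0.8% per 1000 cells; 5.74% to 19.4% of a library). Cells were clustered with SCTransform and Seurat 5.3.0 (RPCA integration, 30 dimensions, resolution 0.8, and 0.5 for GCs), without the pathway list and the 10 genes. A cluster was named from a marker score of at least 0.2 with a lead of 0.1 and 3 markers. These limits, the removal of the erythroid list from the score and a rule for ties were set after the clusters were seen. The dendritic-like class also held B lymphocyte markers.

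UMIs were summed per class and library, with a class compared where every library had 20 cells. The main test was edgeR 4.0.16 (quasi-likelihood, TMM, filterByExpr, Benjamini-Hochberg), with DESeq2 1.42.0 as an alternative. Limma 3.58.1 tested the difference in effect between classes on log2 CPM with a prior count of 2. Tests were also run on simulated data, and the share of changes recovered is not given here. With 2 libraries in a group, a gene that was not called may still differ. For shares, cells were thinned to 2000 UMIs, which left out 4.23% to 20.3% of a library. Shares and counts of UMIs carry counting error.

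The named genes were the 10 members in every class, other pathway genes as counts and, for each member, the 2 genes of most similar pattern among those with at least 20 CPM in a class. One of these genes is not reported here. The members and lists were chosen with earlier results of these data known. The titles number the libraries 1 and 2 in each group, and no label says that a number marks a shared animal or day. The correlation of same-numbered libraries' deviations was -0.16 in GC-like cells, so the fit had no block. Over the other classes and states it ran from -0.28 in growing-follicle-like GCs to 0.41 in GC unnamed cluster 7.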

Additional observations from a re-analysis of the deposited data

How the results depend on the processing

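With 2 libraries in a group, single libraries decided many calls (a fit without 1 leaves the spread to the other group alone), and calls over all genes rose in the same settings. The number of the 10 genes called in GC-like cells ran from 0 to 1 when each library was left out in turn (1 without the first Fosl2cKO library, where 0.887% of all genes were called), and the same held for the pathway list, where the 1 gene was Pde10a itself. For the GC states that range was 0 to 10 pairs (10 without the first and 2 without the second Fosl2cKO library, against 1.18% and 1.04% of all pairs), and for the other classes 0 to 4 (4 without the second Fosl2F/F library, 1 and 2 without the first and second Fosl2cKO library, against 1.58%, 0.898% and 0.885% of all pairs). In the GC states DESeq2 called 4 pairs (0.623% of all pairs), edgeR without a filter on genes 9 (1.46%), and a doubled doublet rate gave 1 (0.207%). In the other classes DESeq2 called 2 (0.585%) and edgeR without a filter 4 (1.27%). The causes were not tested. Cells over 2000 UMIs, clusters made without integration and an adjusted p under 0.05 with no minimum fold called 0 in all comparisons. The replicate block changed no call, with 0 in GC-like cells, GC states, other classes, the pathway list and the difference between GC-like and stromal-like cells. Crossed numbers, a pairing added after the data were seen, gave 0 in GC-like cells, 5 in the GC states (1.45% of all pairs), 1 in the other classes (1.03%) and 0 in the pathway list. Without the second Fosl2F/F library, the log2 fold changes in GC-like cells turned sign for Pde3a (0.21; -1.30 without the first) and Prkar2b (-0.12; 0.93 without the first). The class of the highest level changed under some alternatives for Pde5a, Pde7b and Pde8a. With clusters made without integration, Pde7b was highest in an unnamed GC cluster. The best marker score of that cluster was the atretic-like one (0.614, next 0.135), but no marker was among its leading genes. In GC-like cells Pde3a and Adcy7 rested on 52 to 187 UMIs in a library, and low depth was not told apart from low expression.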

Other observations

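Oocyte-like cells entered no comparison, because 1 library held only 17. Prkar1a was there at 12 and 35 UMIs in Fosl2F/F, against 5 and 10 in Fosl2cKO, and Prkar2b at 8, 37, 3 and 13. Pde8a had 4, 11, 5 and 9 UMIs. Pde4d had 60 UMIs in the second Fosl2F/F library and 6, 0 and 5 in the others.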
